A study of Sus scrofa with 42 samples.

Results

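Translation initiation and elongation factors were followed cell by cell in early pig embryos, which came either from fertilization in vitro (IVF) or from oocytes activated without sperm (parthenogenetic activation, PA). The genes were taken by name, as every gene called EIF1 to EIF6, EEF1 or EEF2 with any suffix in the gene table, plus the unnamed gene ENSSSCG00000004489, which is EEF1A1. This gave 54 of the 15351 genes. Of these, 44 were among the 8116 genes with an FPKM (fragments scaled to gene length and to the mapped reads of the cell) of at least 1 in at least 3 cells, and only those 44 were tested. None of the 54 was at 0 in every cell. EIF4A2, EIF3M, EIF6 and EEF1E1 are unnamed in the table, were found by their identifiers in the reference table of gene names, and are given apart from the 54.

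Translation starts when the eIF4 factors bind the cap of an mRNA and unwind it, eIF2 brings the initiator tRNA, eIF3 holds the small ribosomal subunit, and EIF1 and EIF1AX keep it scanning until a start codon is met. EIF5B then joins the large subunit. EEF1A1 carries each next tRNA to the ribosome, is recharged by the exchange complex of EEF1B2, EEF1D and EEF1G, and EEF2 moves the ribosome along. Oocytes store mRNAs in a repressed state, and the early embryo lives on them until its own genome is transcribed.

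The table held 42 cells from 20 embryos, which fall into 8 groups by method and stage. Zygotes were taken 19 h, 2-cell embryos 27 h, 4-cell embryos 48 h and 8-cell embryos 72 h, counted from the end of co-incubation with sperm (IVF) or from the electric pulses (PA). PA embryos were further kept in 6-dimethylaminopurine and cytochalasin B, and hold maternal genomes only. Each method had 3 zygotes, 6 blastomeres of 3 2-cell embryos, 9 blastomeres of 3 4-cell embryos and 3 blastomeres of a single 8-cell embryo. A blastomere is named by its embryo and its own number, so that 1-4 is blastomere 4 of embryo 1. The embryo was the replicate, and its value was the mean FPKM of its cells. Both 8-cell groups were therefore 1 embryo each, and every 8-cell comparison below rests on the spread between embryos of the other groups. Reads on genes ranged from 5044413 to 17655754 per cell (median, 11605651).

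Transcripts that mark the stages were looked at first. Oocyte genes (11 tested of 13 listed, BTG4 the most abundant) summed to a median of 1159 FPKM per cell in IVF and 1423 in PA zygotes, and to 25 and 89.6 in 8-cell blastomeres. The 4-cell blastomeres lay between 541 and 1771 in IVF and between 208 and 1291 in PA. Among those genes, ZP3, ZAR1 and OOEP were at 0 in all 8-cell blastomeres. Cumulus and granulosa genes (3 tested of 12, with STAR or HAS2 the most abundant in most cells above 1 FPKM) reached at most 32.3 FPKM in a cell and at most 0.0664 in an 8-cell blastomere. Of the 8 sperm genes, ODF2 and AKAP4 were in the table used here and only ODF2 was tested. ODF2, which somatic centrosomes use too, stood at 32.8 FPKM in IVF 8-cell blastomere 1-3, against 0 and 0.00459 in 1-1 and 1-2. It was called up in IVF against the 4-cell stage but not against the 1-cell stage. KLF4, KLF17 and NANOG, which the embryo transcribes itself, summed with SOX2 to a median of 0.734 FPKM in IVF zygotes and 165 in IVF 8-cell blastomeres, and to 0.550 and 205 in PA. The 4-cell blastomeres ranged from 0.166 to 839 FPKM in IVF and from 1.67 to 707 in PA. IVF blastomere 3-3 had the lowest sum in IVF together with 1362 FPKM of oocyte genes, and PA blastomere 2-1, described next, the lowest in PA together with 1291. The part of these changes in the results below was not tested.

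PA 4-cell blastomeres 2-1 and 1-4 nearly repeated PA 2-cell blastomeres 2-1 and 1-2. Pearson's r of log2(FPKM + 1) was 0.999 in both pairs, against 0.931 for the next of the 861 pairs of cells. Results with PA 4-cell embryos are given with these 2 blastomeres, and without them where a call changes. FPKM is a relative scale, so that more mRNA of a gene and less mRNA of other genes cannot be told apart.

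The 5′ ends of the transcripts are shown first, since a run of C and T bases that opens with C at the start of an mRNA (the 5′ terminal oligopyrimidine motif) is a known feature of translation factor genes. Each line gives the 10 bases before and the 20 bases from the RefSeq start of the gene in Sscrofa11.1, so that base 11 is the first base of the transcript, with runs of at least 6 C or T bases that open with C in capitals. A run that goes on past an end of the line is shown in part. The windows lie at chr1:92421941-92421970 for EEF1A1, chr15:109451891-109451920 for EEF1B2, chr4:969522-969551 for EEF1D, chr2:9163210-9163239 for EEF1G and chr4:21955016-21955045 for EIF3H, all on the + strand, and at chr13:53152316-53152345 for EIF4E3 and chr3:54930807-54930836 for EIF5B, both on the - strand. The first 5 were called up and the last 2 were called down in the comparisons described below. 
EEF1A1: cgcgaacgttCTTTTTCgcaacgggtttgc
EEF1B2: gaagtggcctggcggcccaggccgaacgtc
EEF1D: cccgccgagtccacccgagcggcggcggag
EEF1G: CTCTatgccgtcctcgctttacggctgctg
EIF3H: CCTCTTCCgtttactcacgtttCTCCTTTT
EIF4E3: ttgcagccgagcgcgcccggcggcgccccc
EIF5B: cgatgagcctcgccctgcgtccccacgccg
In EEF1A1 the run CTTTTTC began on the annotated first base itself. Within 20 bases on either side of the start, a run was found on the sense strand in 19 of the 51 genes with a matched start (37.3%), against 5831 of 19549 genes with a RefSeq mRNA (29.8%). Of the 14 matched genes that were called up in an 8-cell comparison in either method, 7 had a run, as did 7 of the other 28 tested and matched genes. The 14 include EEF1D and EIF4G1, which reached 1 FPKM in at least 3 cells only through 8-cell blastomeres. They also include genes whose calls were lost without 1 blastomere. These counts are descriptions of annotated starts, 16 of which come from curated transcripts and the others from models. A missing run says only that these letters are not in this window.

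The 54 genes held close to 1% of the FPKM of nuclear genes until the 4-cell stage and more at the 8-cell stage. Their share of the summed FPKM of nuclear genes was 0.893% ± 0.0131 in IVF zygotes (SD, n = 3 embryos), 0.852% ± 0.0837 at the 2-cell and 1.15% ± 0.184 at the 4-cell stage, and 4.04% in the IVF 8-cell embryo. In PA embryos the shares were 0.884% ± 0.0697, 0.852% ± 0.0374, 0.907% ± 0.187 and 2.15%. Both 8-cell embryos lay above all embryos of the earlier stages. Single IVF cells overlapped, with 1.84% in 4-cell blastomere 3-4 against 1.63% in 8-cell blastomere 1-3. Over all FPKM, mitochondrial genes included, that 8-cell blastomere held 0.756%, below IVF zygote 1 with 0.853%. EEF1A1 made much of this in IVF, and without it the 8-cell shares were 2.28% in IVF and 1.83% in PA. The 3 IVF 8-cell blastomeres differed widely, with 6.67% in 1-1, 2.98% in 1-2 and 1.63% in 1-3, whereas the PA blastomeres lay between 2.00% and 2.26%. IVF blastomere 1-1 had the fewest reads on genes of all cells (5044413) and the lowest mitochondrial share of its embryo, 26.9% of FPKM against 52.3% and 53.6%, and the part of either in its values was not tested. Over all FPKM, mitochondrial genes included, the shares were 0.768%, 0.614%, 0.682% and 2.21% in IVF and 0.765%, 0.71%, 0.538% and 1.13% in PA.

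**Figure D1:**
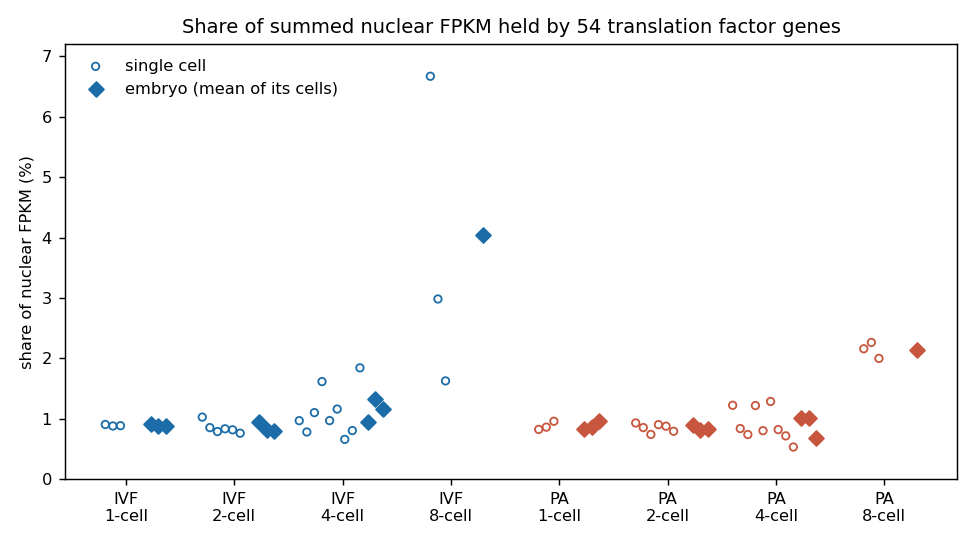
Share of the summed FPKM of nuclear genes (%) held by the 54 translation factor genes, by method and stage. Open circles are single cells and diamonds are embryos. The 8-cell embryos, at 4.04% (IVF) and 2.15% (PA), lie above all earlier embryos, and the 3 IVF 8-cell blastomeres spread from 1.63% to 6.67%.

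The most abundant factors changed with the stage. FPKM is per length of gene, so levels can be set side by side between genes. Over the embryos of both methods, the order at the 1-cell stage was EIF5B (149 FPKM), EEF1A1 (137), EIF3E (124), EIF4E3 (114) and EIF1 (97.3). The same 5 genes led at the 2-cell stage, with EIF5B at 164 FPKM and EIF4E3 at 87.6. At the 4-cell stage EIF1 led with 221 FPKM, before EIF4G2 (147), EEF1A1 (113), EIF5B (87.8) and EIF3J (69.5). The methods differed below EIF1. In IVF EEF1A1 came second with 180 FPKM before EIF4G2 with 166, whereas in PA EEF1A1 stood at 45.4 FPKM, and at 13.8 without the near repeats, where EIF3J (117) lay above EIF5B (53.5). At the 8-cell stage the mean of both embryos was 1466 FPKM for EEF1A1, before EIF3H (906), EEF1B2 (397), EIF3E (347) and EIF1 (189). The IVF embryo carried this order. EEF1A1 made 44.6% of the summed FPKM of the 54 genes there (2511 FPKM), whereas in the PA embryo EIF3H led with 667 FPKM before EEF1A1 with 421. An embryo had FPKM above 0 for 42.3 ± 2.08, 44.7 ± 1.53, 44.7 ± 2.08 and 47 of the 54 genes in IVF (SD, n = 3, 3, 3 and 1), and for 37.7 ± 1.53, 39.3 ± 1.53, 39.0 ± 4.36 and 44 in PA. An embryo pools 1 cell as a zygote and more at later stages, and single cells showed no such order. A zygote held 27 to 30 of the genes at 1 FPKM or more in IVF and 25 to 27 in PA, and an 8-cell blastomere 25 to 29 and 24 to 26.

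**Figure D2:**
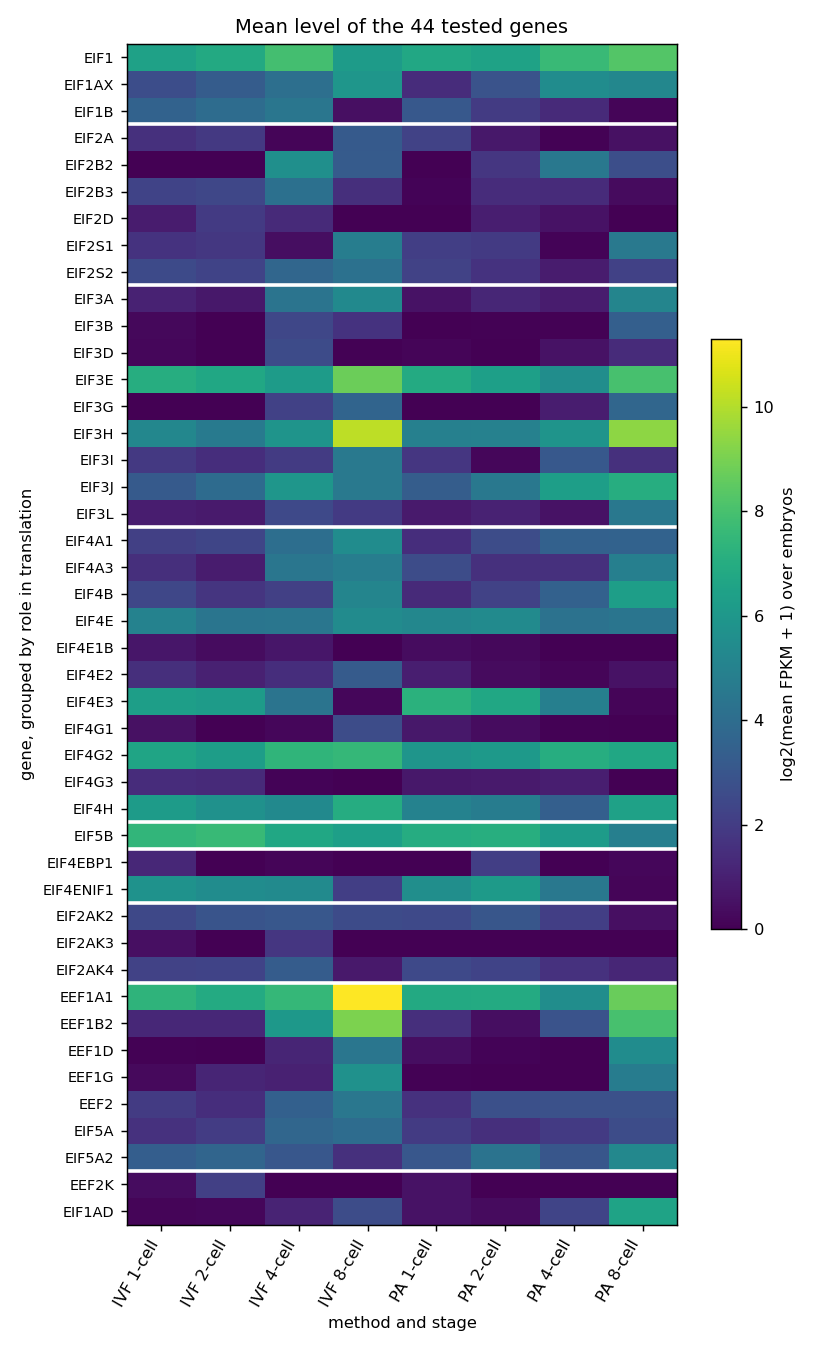
Mean level, as log2(mean FPKM + 1) over the embryos of each group, of the 44 tested genes. Rows are genes in blocks by their role in translation, in the order scanning, initiator tRNA delivery, eIF3, cap binding and unwinding, subunit joining, inhibitors, kinases, elongation and proteins named after a factor. EEF1A1 and EIF3H are brightest in the 8-cell columns, and EIF4E3 is dark there.

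Changes between stages and methods were tested with limma on log2(FPKM + 1) of the 20 embryos, and a call needed a change of 2-fold or more together with a Benjamini-Hochberg adjusted p below 0.05. From the 1- to the 2-cell stage limma called 0 of the 44 genes in IVF (0% of the 8116 genes up and 0% down), with 1 at an unadjusted p below 0.05 (2.66% of all genes). In PA it called 0 too (0% up and 0.0986% down), with 2 at an unadjusted p below 0.05 (4.85% of all genes). From the 2- to the 4-cell stage 2 genes rose in IVF, EEF1B2 and EIF4A3, against 0.616% of all genes called up and 1.11% either way. Without IVF 4-cell embryo 1 there were 8 calls, and without IVF 4-cell embryo 2, or IVF 2-cell embryo 1 or 2, there were 0. The shares of all genes called in these fits are not given here, so the counts show only how far the calls depended on single embryos. In PA 0 were called over that step (0.382% up, 0.0123% down and 0.394% either way of all genes), with 6 at an unadjusted p below 0.05 (10.8% of all genes). Without the 2 near repeats, 4 genes fell in PA from the 2- to the 4-cell stage, namely EEF1A1, EIF4E, EIF4E3 and EIF4H. In that fit 7.41% of all genes were called, of which 15.5% rose, against 96.9% with the repeats. Under scaling by the median ratio, with the repeats, 7 of the 44 genes rose and 0 fell over this step, where 98.8% of all called genes rose. The share of all genes called under that scaling is not given here, so this count is not read as a result about the 44 genes.

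The 8-cell stage held nearly all the calls. In each of the 4 comparisons with it, 2 of the calls counted here were of genes that passed the filter on low values only through 8-cell blastomeres. Against the 4-cell stage 8 genes rose and 0 fell in IVF (3.72% of all genes called up, 3.25% down and 6.97% either way), and 11 rose and 0 fell in PA (6.81% up, 3.18% down and 9.99% either way). Without the near repeats 6 rose and 1 fell in IVF (5.98% of all genes called), where the calls of EEF1A1 and EIF3H were lost and EIF4E3 fell by 4.05 on the log2 scale (adjusted p = 0.0345, limma with Benjamini-Hochberg), a value that with the repeats in the fit had an adjusted p of 0.0798. In PA 12 rose and 0 fell (9.72% of all genes called), EIF3A and EIF4H being added and EIF4A3 lost (adjusted p = 0.0504). All calls against the 4-cell stage depend on the spread shared by the 8 groups. Fitted to the 4 embryos of the groups compared alone, limma called 0 of the 44 genes in IVF (0% of all genes) and 0 in PA (1.2%), with 8 and 13 at an unadjusted p below 0.05 (9.97% and 15.6% of all genes). Against the 1-cell stage 8 rose and 1 fell in IVF (6.03% up and 8.23% down), and 10 rose and 3 fell in PA (7.58% up and 6.21% down). The fit of 4 embryos called 12 and 14 there (23% and 17.2% of all genes), of which 5 and 12 were among these 9 and 13. At an unadjusted p below 0.05 there were 19 of the 44 in IVF (29.6% of all genes) and 17 in PA (26.4%). The median log2 fold change of the 44 genes was 0.49 in IVF and 0.70 in PA against the 4-cell stage, where the median of all genes was -0.38 and -0.15. The medians against the 1-cell stage were 1.55 and 1.17, and those of all genes -0.77 and -0.58. Scaling of each cell by its median ratio moved the medians of all genes to -0.06 (IVF) and -0.11 (PA) against the 1-cell stage and those of the 44 genes to 4.42 and 4.03. Under that scaling 26 rose and 1 fell in IVF and 25 rose and 1 fell in PA, while the share of rises among all called genes went from 42.3% to 92.7% in IVF and from 55.0% to 93.7% in PA. The share of all genes called under that scaling is not given here, so these counts are not read as a result about the 44 genes. Against the 4-cell stage that share went from 53.4% to 84.9% in IVF and from 68.2% to 78.5% in PA.

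**Figure D3:**
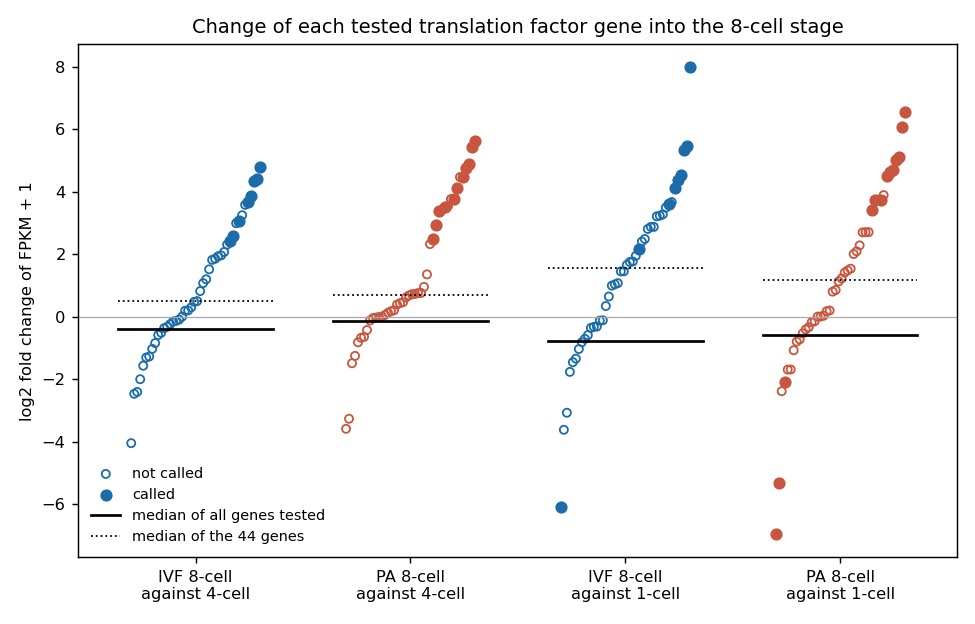
Log2 fold change of FPKM + 1 of each of the 44 tested genes, sorted within each comparison, for the 8-cell against the 4-cell and the 1-cell stage. Filled points are called genes, the solid line is the median of all 8116 genes tested and the dotted line that of the 44 genes. The dotted line lies above the solid line in all 4 comparisons.

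Many of these calls rested on a single blastomere. The 8 calls against the 4-cell stage in IVF became 5 without blastomere 1-1, and the 13 against the 1-cell stage in PA became 8 without blastomere 1-2. Each of the 3 blastomeres of an 8-cell embryo was left out in turn, an alternative chosen after the values were seen. Against the 4-cell stage, 2 of the 8 calls in IVF (EEF1D and EEF1G) and 4 of the 11 in PA (EEF1A1, EEF1B2, EEF1D and EIF2S1) held in every case. Against the 1-cell stage, 7 of 9 held in IVF (EEF1A1, EEF1B2, EEF1D, EEF1G, EIF3G, EIF3H and EIF4E3) and 6 of 13 in PA (EEF1B2, EEF1D, EIF3H, EIF4B, EIF4E3 and EIF4ENIF1). EEF1D held in every comparison but passed the filter on low values only through 8-cell blastomeres, so this is not read as support for a rise. Values without a blastomere are given below beside the genes whose calls were lost.

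**Figure D4:**
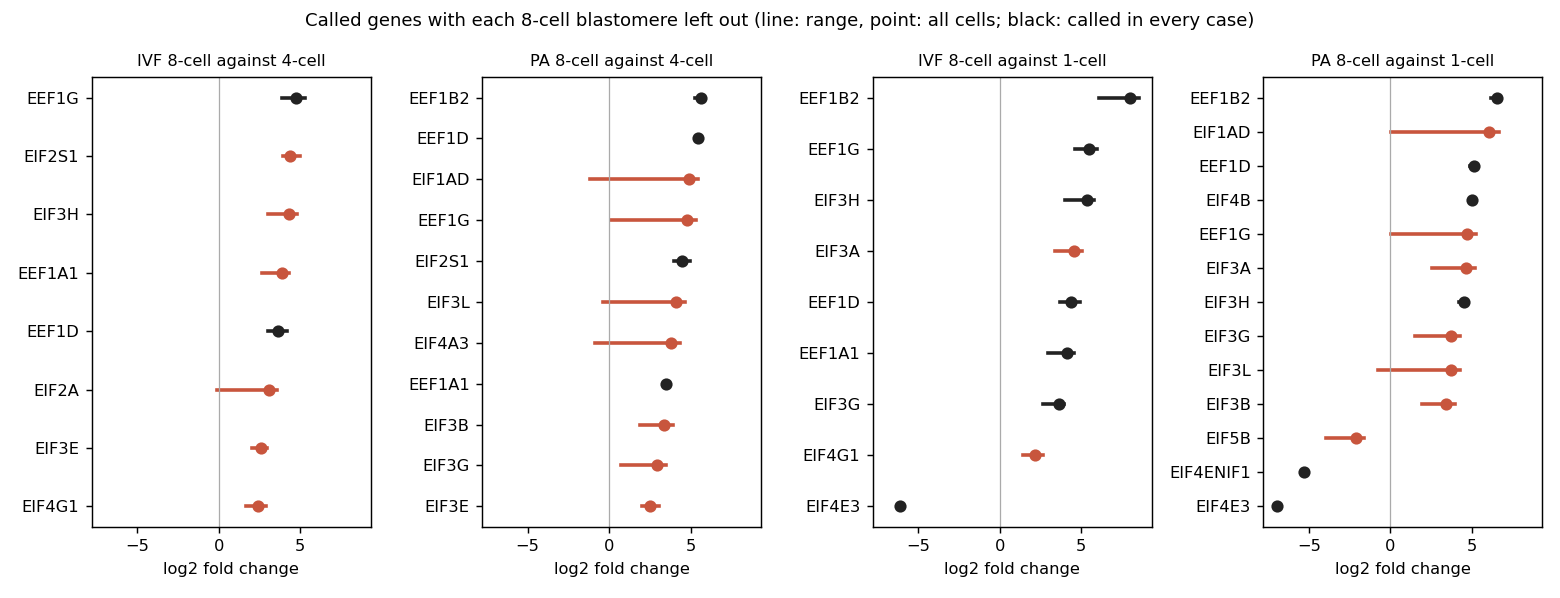
Log2 fold change of FPKM + 1 of the called genes in the 8-cell comparisons. Points are the values with all 3 blastomeres of the 8-cell embryo and lines the range when each was left out. Black marks genes called in every case, such as EEF1B2 and EIF4E3 against the 1-cell stage, and red those that lost their call at least once. EEF1D, also black, passed the filter on low values only through 8-cell blastomeres. For EIF1AD, EIF3L and EIF4A3 in PA, and EIF2A in IVF, the line crosses 0.

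EEF1A1, the carrier of aminoacyl-tRNA, was the most abundant factor in the IVF 8-cell embryo and came after EIF3H in the PA one. Its embryos stood at 270, 120 and 90.4 FPKM in IVF zygotes, at 198, 93.5 and 64.0 at the 2-cell stage and at 141, 262 and 138 at the 4-cell stage. In PA they stood at 126, 55.4 and 162, at 147, 64.7 and 145, and at 90.2, 27.2 and 18.6 FPKM. The IVF 8-cell blastomeres held 5301, 1514 and 717 FPKM and the PA ones 514, 331 and 419, so that all 6 lay above every earlier cell of both methods. EEF1A1 rose against the 4-cell stage by a log2 fold change of 3.86 ± 0.92 in IVF (SE, adjusted p = 0.0117, limma with Benjamini-Hochberg) and 3.51 ± 0.92 in PA (adjusted p = 0.0178), and against the 1-cell stage by 4.12 ± 0.92 in IVF (adjusted p = 0.00534). In PA the value against the 1-cell stage was 2.00 ± 0.92 and was not called (adjusted p = 0.167). Without IVF blastomere 1-1 the value against the 4-cell stage was 2.69 (adjusted p = 0.0876).

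The near repeats bear on EEF1A1 in PA 4-cell embryos. The repeats held 180 FPKM (1-4) and 42.9 FPKM (2-1), and the other 7 blastomeres lay from 0.620 to 62.3. Without the repeats EEF1A1 fell in PA from the 2- to the 4-cell stage by 3.62 on the log2 scale (adjusted p = 0.0107, limma with Benjamini-Hochberg), against -1.61 with them (adjusted p = 0.362). Its rise from the 4- to the 8-cell stage in PA was then 5.52 (adjusted p = 0.00472), and in IVF the unchanged value of 3.86 had an adjusted p of 0.0603. A second gene, ENSSSCG00000037674, lies on the opposite strand within EEF1A1 (chr1:92423745-92424727, Sscrofa11.1). Its log2 values followed those of EEF1A1 over the 42 cells (r = 0.998), and it held a median of 0.834 reads for each read of EEF1A1. The strandedness of the libraries is not given in the sources used here, so the reads of the 2 genes cannot be told apart. EEF1A2, the paralog of EEF1A1 in muscle and neurons, was above 0 in 1 cell only, at 0.0308 FPKM.

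EEF1B2, which exchanges the nucleotide on EEF1A, rose from the 2- to the 4-cell stage in IVF, and its 8-cell embryos stood above their zygotes in both methods. Its IVF embryos held 2.87, 0.270 and 1.03 FPKM at the 1-cell stage, 0.634, 2.31 and 1.23 at the 2-cell stage, 13.6, 126 and 49.8 at the 4-cell stage, and 542 at the 8-cell stage. PA embryos held 3.00, 1.72 and 0.883, then 0.458, 0.392 and 0.141, then 0.474, 13.5 and 5.41, and 253 FPKM. The 4-cell embryos of IVF lay above all earlier IVF embryos, while in PA the lowest 4-cell embryo lay among the earlier ones. The rise from the 2- to the 4-cell stage in IVF was 4.31 ± 0.87 (SE, adjusted p = 0.0218, limma with Benjamini-Hochberg). It lost its call without any of the IVF 2-cell embryos or without IVF 4-cell embryo 2. Against the 1-cell stage the 8-cell value was 7.98 ± 1.23 in IVF (adjusted p = 0.000214) and 6.53 ± 1.23 in PA (adjusted p = 0.00156). From the 4- to the 8-cell stage it rose in PA by 5.62 (adjusted p = 0.00560), and in IVF the value was 3.58 and not called (adjusted p = 0.0930). The IVF 8-cell blastomeres spread from 10.5 to 1338 FPKM and the PA ones from 169 to 370. EEF1B2 overlaps NDUFS1 on the opposite strand, and the log2 values of the pair had r = 0.964 over the 42 cells.

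EEF1D, a further exchange subunit, was close to 0 until the 8-cell stage. The highest of the 18 IVF cells before it held 7.43 FPKM (4-cell 2-2), and the highest of the 18 PA cells 1.02. The 8-cell blastomeres held 0.880, 36.6 and 24.2 FPKM in IVF and 55.0, 40.8 and 34.7 in PA. Only 2 of the 7 cells at 1 FPKM or more came before the 8-cell stage, so that EEF1D passed the filter of 3 cells only through the 8-cell blastomeres where it is high. Its log2 values against the 1-cell stage were 4.39 ± 0.78 in IVF (SE, adjusted p = 0.000793, limma with Benjamini-Hochberg) and 5.11 ± 0.78 in PA (adjusted p = 0.000234). Against the 4-cell stage they were 3.67 and 5.44. EEF1D entered the test through the values tested, so its p-values are not read as support for a rise. Its FPKM was below that of EEF1A1 in all 6 8-cell blastomeres, and above that of EEF1B2 in IVF blastomere 1-3 only.

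EEF1G, a further subunit of the exchange complex, was low before the 8-cell stage. Its IVF embryos stood at 0.447, 0.185 and 0 FPKM as zygotes, at 0.818, 1.98 and 0.868 at the 2-cell and at 0.207, 1.56 and 1.33 at the 4-cell stage. In PA it was listed at 0 in all 6 PA 2-cell and all 9 PA 4-cell blastomeres. The IVF 8-cell blastomeres held 50.5, 100 and 5.23 FPKM, the lowest of which lay just under IVF 4-cell blastomere 3-1 (5.34). Of the PA 8-cell blastomeres only 1-4 reached 1 FPKM, at 77.7, and the other two held 0.0448 and 0.124. The rise against the 1-cell stage was 5.47 ± 0.72 in IVF (SE, adjusted p = 4.27e-05, limma with Benjamini-Hochberg). In PA the value of 4.69, which depends on the 1 added to FPKM since zygotes held 0, 0.146 and 0 FPKM, became 0.05 without blastomere 1-4.

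**Figure D5:**
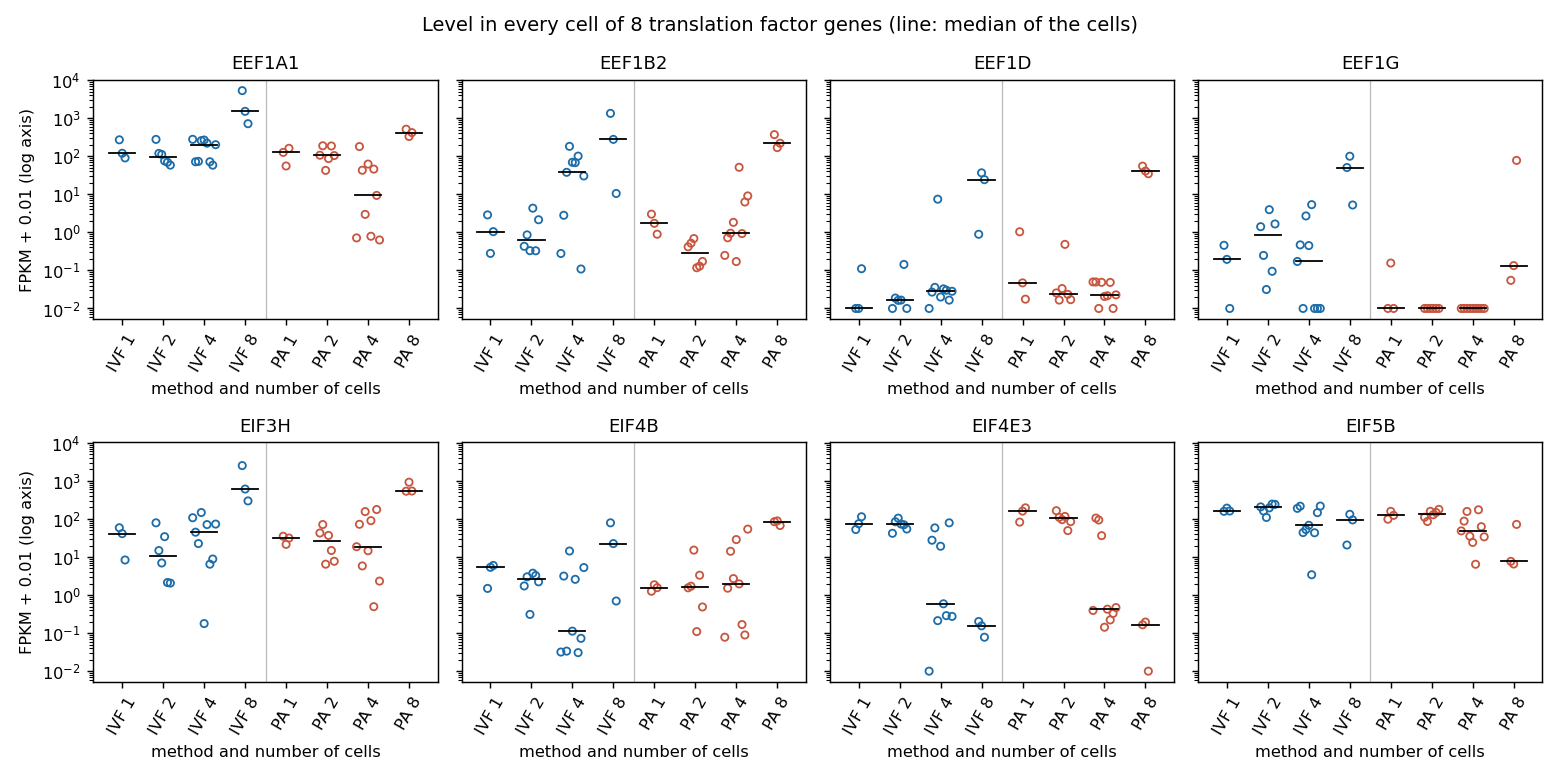
FPKM + 0.01 on a log axis of 8 genes in each of the 42 cells, by method and number of cells in the embryo. Circles are cells and lines the median of the cells of a group. EEF1A1, EEF1B2 and EIF3H are high in all 8-cell groups, EEF1G is high in 1 of 3 PA 8-cell blastomeres, and EIF4E3 falls from 4-cell blastomeres that split into high and low cells to at most 0.192 at the 8-cell stage.

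At 1 FPKM or more, all 4 of EEF1A1, EEF1B2, EEF1D and EEF1G were found together in 1 of the 9 IVF 4-cell blastomeres, 2 of the 3 IVF 8-cell and 1 of the 3 PA 8-cell blastomeres, and in no other cell. The other elongation factors did not pass the test in any comparison with all cells in the fit described. Scaling by the median ratio called EEF2 and EIF5A up in IVF at the 8-cell against the 1-cell stage, and EIF5A and EIF5A2 in PA. Of all genes called in these comparisons under that scaling, 92.7% (IVF) and 93.7% (PA) rose. EIF5A was called there in IVF also with no filter, without 8-cell blastomere 1-3 and with only the groups compared. EEF2, the translocase, had 2.96 FPKM in IVF zygotes and 21.5 in the IVF 8-cell embryo, a difference of 2.81 ± 1.42 on the log2 scale (SE, adjusted p = 0.196, limma with Benjamini-Hochberg). In PA it had 2.08 and 6.04 FPKM. EIF5A, which carries hypusine and helps ribosomes over stalling sequences, had 2.05 and 15.0 FPKM in IVF and 2.85 and 5.09 in PA at these stages. Its paralog EIF5A2 had 9.27 FPKM in IVF zygotes and 1.92 in the 8-cell embryo, and 7.36 and 37.9 in PA, where blastomere 1-2 held 106 FPKM and 1-1 held 0.0418.

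Of the 11 eIF3 genes, which build the platform of the small subunit, 9 were tested, and 6 rose with the 8-cell stage in at least 1 comparison. Against the 1-cell stage 3 rose in IVF and 5 in PA, and against the 4-cell stage 2 rose in IVF and 4 in PA. The shares of all genes called up in these comparisons were 6.03%, 7.58%, 3.72% and 6.81%. EIF3B is among the 6 genes, and among the 5 and the 4 in PA. It passed the filter only through 8-cell blastomeres, so its part in these counts is not read as support for a rise. The median log2 fold change of the 9 was 1.75 (IVF) and 3.72 (PA) against the 1-cell stage. At 1 FPKM or more, a zygote held 4 or 5 of the 11 subunits, a 2-cell blastomere 3 to 5 and an 8-cell blastomere 6 to 8. The 4-cell blastomeres ranged from 2 to 8 in IVF and from 2 to 5 in PA, and no cell held all 11.

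EIF3H, a subunit outside the conserved core, was called up against the 1-cell stage in both methods. Zygotes held 58.6, 41.1 and 8.34 FPKM in IVF and 35.1, 21.5 and 31.5 in PA. The 8-cell blastomeres held 2526, 610 and 298 FPKM in IVF and 536, 924 and 541 in PA, above every earlier cell. The rise against the 1-cell stage was 5.32 ± 1.21 in IVF (SE, adjusted p = 0.00606, limma with Benjamini-Hochberg) and 4.49 ± 1.21 in PA (adjusted p = 0.0186). Against the 4-cell stage it was 4.34 in IVF, which lost its call without blastomere 1-1 (3.01, adjusted p = 0.159) or without the near repeats (adjusted p = 0.0584), and 3.54 in PA, where it was not called (adjusted p = 0.0744).

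EIF3E, a further abundant subunit, was high from the start. Its embryos held 110 to 152 FPKM in IVF zygotes and 108 to 136 in PA zygotes, 57.7 to 99.5 and 34.4 to 56.4 at the 4-cell stage, and 434 and 259 at the 8-cell stage. The 8-cell blastomeres held 709, 422 and 173 FPKM in IVF and 365, 4.39 and 406 in PA. The rise against the 4-cell stage was 2.59 ± 0.69 in IVF (SE, adjusted p = 0.0256, limma with Benjamini-Hochberg) and 2.50 ± 0.69 in PA (adjusted p = 0.0255). It was lost in IVF without blastomere 1-1 (2.04, adjusted p = 0.0847) and in PA without 1-1 or 1-4, where the lower value was 2.01. EIF3M, unnamed in the table and outside the 54, held 71.4, 67.2 and 69.9 FPKM in IVF and 33.2, 46.3 and 110 in PA zygotes, and 66.6 and 43.8 in the 8-cell embryos.

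The other eIF3 calls each leaned on 1 blastomere in at least 1 method. EIF3A, a scaffold of the complex, had 84.1, 31.3 and 3.57 FPKM in the IVF and 14.8, 0.0381 and 87.6 in the PA 8-cell blastomeres, and its rises of 4.53 and 4.64 against the 1-cell stage became 3.39 without IVF 1-1 and 2.57 without PA 1-4, both not called. Without the near repeats EIF3A also rose in PA against the 4-cell stage, by 4.98 (adjusted p = 0.0347, limma with Benjamini-Hochberg). EIF3G had 23.5, 4.69 and 5.76 FPKM in IVF, where the rise of 3.62 ± 0.88 against the 1-cell stage held (SE, adjusted p = 0.00965, limma with Benjamini-Hochberg), and 2.67, 33.4 and 1.02 in PA, where the rises of 3.74 and, against the 4-cell stage, 2.94 became 1.51 and 0.71 without 1-2. EIF3G overlaps P2RY11 on the opposite strand (r = 0.996 over the 42 cells). EIF3B, the second scaffold, had 5.83, 23.4 and 0 FPKM in the PA blastomeres, and its rises of 3.38 (against the 4-cell stage) and 3.42 became 1.92 and 1.96 without 1-2. EIF3B too had only 2 cells at 1 FPKM before the 8-cell stage and passed the filter only with the 8-cell blastomeres, so its calls are not read as support for a rise. EIF3L rose in PA through blastomere 1-2 with 66.3 FPKM, the others holding 0.0180 and 0.0238, and its values of 4.11 and 3.72 turned to -0.40 and -0.78 without it. EIF3D, EIF3I and EIF3J did not pass the test. EIF3J, the loosely bound subunit, held 8.09 FPKM in IVF and 8.95 in PA zygotes, 60.4 and 78.5 at the 4-cell stage, and 22.7 and 131 at the 8-cell stage. EIF3F and EIF3K reached 1 FPKM in 1 and 2 cells and were not tested.

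The scanning factors did not pass the test in any comparison with all cells in the fit described. Under scaling by the median ratio EIF1 and EIF1AX were called up at the 8-cell against the 1-cell stage in both methods. EIF1 was called up in PA from the 2- to the 4-cell stage too. Of all genes called under that scaling, 92.7% (IVF) and 93.7% (PA) rose against the 1-cell stage, and 98.8% over the PA step. With embryo numbers as a block EIF1AX was called against the 1-cell stage in both methods, and with only the groups compared EIF1B in IVF. EIF1, which keeps the ribosome open during scanning, was the most abundant factor at the 4-cell stage, with 161, 392 and 167 FPKM in IVF embryos and 221, 230 and 155 in PA, above all earlier embryos of both methods. At the 8-cell stage its blastomeres held 13.0, 86.8 and 120 FPKM in IVF and 542, 353 and 20.9 in PA. EIF1AX, which binds the small subunit beside EIF1, had 5.27 ± 3.71 FPKM in IVF zygotes (SD, n = 3) and 59.3 in the 8-cell embryo, a difference of 3.49 ± 1.40 on the log2 scale (SE, adjusted p = 0.102, limma with Benjamini-Hochberg). Its copy on the Y chromosome, EIF1AY, was at 0 in all 21 PA cells. In IVF it was at 0 in all zygotes, and stood at 1.60 and 17.6 FPKM in 8-cell blastomeres 1-1 and 1-2 and at 0 in 1-3, with 50 and 1442 reads. The paper sexed the IVF 8-cell embryo as male, from the summed FPKM of genes on the Y chromosome. EIF1AX and EIF1AY are near copies, and reads could be split between them. In blastomere 1-3 EIF1AX was at 0.00931 FPKM, against 97.4 and 80.4 in the other two.

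Of the carriers of the initiator tRNA, EIF2S1, the alpha subunit of eIF2 and the target of the stress kinases, rose from the 4- to the 8-cell stage in both methods. Its embryos held 2.08, 0.767 and 3.61 FPKM in IVF zygotes, 0.0188, 0.0984 and 0.938 at the 4-cell stage and 26.4 at the 8-cell stage. In PA they held 0.646, 5.94 and 3.19, then 0.0243, 0.164 and 0.00482, and 22.5. The 8-cell blastomeres held 0.0261, 38.2 and 41.1 FPKM in IVF and 35.7, 28.6 and 3.37 in PA, and both 8-cell embryos lay above all other embryos of their method. The rises were 4.41 ± 1.25 in IVF (SE, adjusted p = 0.0364, limma with Benjamini-Hochberg) and 4.47 ± 1.25 in PA (adjusted p = 0.0265). With each blastomere left out in turn the IVF value lay between 3.96 and 4.97, and it was not called without 1-2 or 1-3 (adjusted p at most 0.0548). Against the 1-cell stage the values were 3.23 and 2.70, neither called.

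EIF2A, an alternative carrier of initiator tRNA, rose in IVF from the 4- to the 8-cell stage by 3.07, all of it from blastomere 1-3 with 24.8 FPKM. Without that blastomere the value was -0.085. EIF2S2, the beta subunit, held 24.8 FPKM in IVF 4-cell embryo 2 and 0.264 to 1.19 in the PA 4-cell embryos. Of the exchange factor eIF2B, EIF2B2 held 133 and 11.4 FPKM in IVF 4-cell embryos 2 and 3 and 65.8 in PA 4-cell embryo 2, and at most 0.0258 in the remaining 4-cell embryos, so that embryos of 1 group stood far apart. EIF2B4 and EIF2B5 reached 1 FPKM in 2 cells each and were not tested.

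Of the 11 eIF4 genes, which bind the cap and unwind the mRNA, 1 was called up in each of the 4 8-cell comparisons, EIF4G1 in both in IVF, and EIF4A3 (against the 4-cell stage) and EIF4B (against the 1-cell stage) in PA. EIF4G1 passed the filter only through the IVF 8-cell blastomeres, so its calls are not read as support for a rise. EIF4E3 was called down against the 1-cell stage in both methods. A single gene of 11 is near the shares of all genes called up, which were 3.72% and 6.81% against the 4-cell and 6.03% and 7.58% against the 1-cell stage in IVF and PA. EIF4B, a cofactor of the helicase, held 1.25, 1.85 and 1.56 FPKM in PA zygotes and 84.6, 88.7 and 67.1 in the PA 8-cell blastomeres, a rise of 5.0 ± 1.22 (SE, adjusted p = 0.0102, limma with Benjamini-Hochberg) that held without each blastomere. In IVF it held 79.1, 22.5 and 0.687 FPKM at the 8-cell stage, a value of 2.87 against the 1-cell stage that was not called (adjusted p = 0.123). EIF4A3, the helicase that marks exon junctions, rose in IVF from the 2- to the 4-cell stage, from 1.08, 0.385 and 0.996 to 12.6, 14.5 and 35.2 FPKM, by 3.46 ± 0.79 (adjusted p = 0.0381). That call was lost under 10 of 16 alternatives, among them leaving out any of the IVF 2-cell embryos. In PA its 4-cell embryos held 0.294, 5.32 and 0.193 FPKM and the rise of 3.77 at the 8-cell stage came from blastomere 1-1 alone (84.1 FPKM), turning to -0.85 without it.

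EIF4G1, the scaffold between cap and ribosome, was low throughout. The IVF 8-cell blastomeres held 4.96, 10.1 and 0.271 FPKM of EIF4G1. Its log2 values were 2.43 against the 4-cell and 2.16 against the 1-cell stage, and both calls were lost without blastomere 1-2 (1.67 and 1.40). In PA 8-cell blastomeres it held at most 0.00299 FPKM. Only 2 cells outside the IVF 8-cell group reached 1 FPKM, so that EIF4G1 passed the filter of 3 cells only through the group where it was called up. Its calls are therefore not read as support for a rise. EIF4G2, a scaffold that does not bind the cap binder, was the abundant member, with 96.0 and 57.9 FPKM in IVF and PA zygotes, 166 and 128 at the 4-cell stage and 185 and 105 at the 8-cell stage, and did not pass the test. EIF4H, a second helicase cofactor, held 11.0, 28.0 and 79.8 FPKM in IVF and 16.5, 12.3 and 0.177 in PA 4-cell embryos, and 126 and 87.2 in the 8-cell embryos. Without the near repeats the first 2 PA 4-cell embryos held 0.127 and 0.447 FPKM of EIF4H, and it fell in PA from the 2- to the 4-cell stage by 4.22 on the log2 scale (adjusted p = 0.00228, limma with Benjamini-Hochberg) and rose from the 4- to the 8-cell stage by 6.15 (adjusted p = 0.00105).

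EIF4E3, a cap-binding protein, was abundant in zygotes, with a mean of 80.6 FPKM in IVF and 146 in PA, and nearly gone at the 8-cell stage. Its embryos held 52.8, 74.7 and 114 FPKM in IVF and 82.6, 161 and 196 in PA zygotes, 9.68 to 28.6 and then 52.8, 32.7 and 0.330 at the 4-cell stage, and 0.135 and 0.114 at the 8-cell stage. All 6 8-cell blastomeres lay at or under 0.192 FPKM. At the 4-cell stage the cells split, 4 of the 9 IVF blastomeres holding 19.1 to 79.0 FPKM and the other 5 at most 0.580. In PA the 3 highest were the near repeats 1-4 (105) and 2-1 (93.9) and blastomere 2-2 (36.4), and the other 6 held at most 0.459. From the 1- to the 8-cell stage EIF4E3 fell by 6.10 on the log2 scale in IVF (SE 1.34, adjusted p = 0.00489, limma with Benjamini-Hochberg) and by 6.96 in PA (adjusted p = 0.00185), and both calls held in every alternative. Without the near repeats it fell in PA by 5.11 from the 2- to the 4-cell stage (adjusted p = 0.000655).

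The common cap binder EIF4E was steadier. It held 31.2 ± 21.2 FPKM in IVF zygotes and 36.5 ± 10.5 in PA zygotes (SD, n = 3), 20.4 and 18.0 at the 4-cell stage and 43.2 and 19.9 at the 8-cell stage, and was called in no comparison with all cells in the fit described. Under scaling by the median ratio it was called in all 4 8-cell comparisons, and up in those against the 1-cell stage. There 92.7% (IVF) and 93.7% (PA) of all called genes rose. With the mean of log2 values it was called down in PA from the 2- to the 4-cell stage, where 16.7% of all called genes rose. Without the near repeats it fell in PA from the 2- to the 4-cell stage by 3.19 (adjusted p = 0.0179, limma with Benjamini-Hochberg). EIF4E1B, the cap binder named for oocytes, was low in these cells, at 1.54, 0.0456 and 0.295 FPKM in IVF zygotes, 0.234, 0.649 and 0 in PA zygotes and 0 in all 6 8-cell blastomeres. EIF4E1B lies within CDHR2 on the same strand, which held a median of 8.57 reads for each read of EIF4E1B. The part of this overlap in its low values was not tested. EIF4E2, the repressive cap binder, held 1.89 and 0.942 FPKM in zygotes and 8.58 and 0.454 at the 8-cell stage.

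Of the inhibitors that occupy EIF4E, only the transporter EIF4ENIF1 was above 1 FPKM in most zygotes. EIF4EBP1 reached 1 FPKM in few cells, with 4.01, 0 and 0.0975 FPKM in IVF zygotes, 4.93, 0 and 5.03 in PA 2-cell embryos and at most 0.397 in an 8-cell blastomere. EIF4EBP2 reached 1 FPKM in IVF 8-cell blastomere 1-1 only, at 23.2, which put that embryo at 7.75 FPKM. It was below the filter on low values. Without that filter it was called up in both 8-cell comparisons in IVF, as was EIF1AY, and EIF2AK1 and EIF3K were called up in both in PA. Each of these genes reached 1 FPKM in at most 2 cells and was highest in the 8-cell embryo where it was called up. Their calls are therefore not read as support for a rise. The share of all genes called without the filter is not given here. EIF4EBP3 reached 1 FPKM in no cell. EIF4ENIF1, which carries EIF4E to the nucleus and keeps stored mRNAs repressed, held 38.8, 62.5 and 56.7 FPKM in IVF and 48.1, 24.2 and 68.9 in PA zygotes. At the 8-cell stage it held 0.138, 0.115 and 9.57 FPKM in IVF and 0.150, 0.160 and 0 in PA. It fell in PA by 5.33 on the log2 scale (SE 1.69, adjusted p = 0.0420, limma with Benjamini-Hochberg), and in IVF the value was -3.62 (adjusted p = 0.159). The PA call was lost under 9 of 16 alternatives, among them leaving out the near repeats (adjusted p = 0.0689) or any of the PA zygotes.

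EIF5B, the GTPase that joins the subunits, had the highest mean of both methods in 1- and 2-cell embryos. In PA zygotes alone EIF4E3 was higher, with a mean of 146 FPKM against 127. EIF5B was above 1 FPKM in all 42 cells. Zygotes held 159, 193 and 162 FPKM in IVF and 98.4, 158 and 124 in PA, and the 8-cell blastomeres 20.6, 132 and 94.4 in IVF and 7.67, 6.54 and 71.9 in PA. In PA it fell by 2.08 on the log2 scale (SE 0.64, adjusted p = 0.0375, limma with Benjamini-Hochberg), whereas in IVF the value was -1.04 and not called. With each PA blastomere left out in turn the value lay between -3.95 and -1.62. The PA call was lost without blastomere 1-1 or 1-2 and without the near repeats (adjusted p = 0.0975), and under scaling by the median ratio the value was 0.22.

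The kinases of eIF2 alpha that were tested, which lower initiation under stress, were not called. EIF2AK2 (PKR) and EIF2AK4 (GCN2) held 4.44 and 3.75 FPKM in IVF zygotes and 4.98 and 0.723 in the IVF 8-cell embryo. EIF2AK1 (HRI), below the filter, reached 1 FPKM in PA 8-cell blastomere 1-1 only, at 36.4. Of the proteins only named after a factor, EIF1AD, a nuclear protein, rose in PA at the 8-cell stage by 4.87 against the 4-cell and 6.06 against the 1-cell stage, through blastomere 1-2 with 279 FPKM, and the values became -1.15 and 0.04 without it. EEF2K, the kinase that inhibits EEF2, held 7.42, 1.83 and 0.998 FPKM in IVF 2-cell embryos and was at 0 in all 8-cell blastomeres. Of the 4 factors unnamed in the table, none was called in a comparison of stages or methods. EIF6, which keeps the large subunit free until it is needed, came nearest, with 1.40 and 1.23 FPKM in IVF and PA zygotes and 41.8 and 39.7 at the 8-cell stage. Its differences of 4.32 and 4.22 had adjusted p of 0.0793 and 0.0915 (limma with Benjamini-Hochberg), and it was at 0 in IVF blastomere 1-2 and PA blastomere 1-4.

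IVF and PA embryos of the same stage were compared to ask how fertilized and activated embryos differ. The paternal genome, the pulses and the agents given to PA oocytes differ together, and their parts cannot be told apart. At the 1-cell stage 0 of the 44 genes were called (0.0123% up, 0.037% down and 0.0493% either way of all genes) and 0 had an unadjusted p below 0.05 by limma (4.09% of all genes). At the 2-cell stage 0 were called (0% of all genes), with 3 at an unadjusted p below 0.05 (5.43%). At the 4-cell stage 0 were called (0.419% up, 0.136% down and 0.554% either way of all genes), with 12 at an unadjusted p below 0.05 (14% of all genes), all of them higher in IVF. The smallest adjusted p among these was that of EIF4A3 (3.20, adjusted p = 0.0690), followed by EEF1B2 (3.14, adjusted p = 0.0985) and EEF1A1 (2.23, adjusted p = 0.115). Without the near repeats 4 genes were higher in IVF at the 4-cell stage, EEF1A1 by 4.24 (adjusted p = 0.00741, limma with Benjamini-Hochberg), EIF4H by 4.61, EIF4A3 by 3.18 and EIF2S2 by 2.85. In that fit 4.07% of all genes were called, of which 92.1% were higher in IVF. Without IVF 4-cell embryo 1 there were 5 calls, and without PA 4-cell embryo 1 or 2 there was 1. Scaling by the median ratio called 1 gene, lower in IVF, where 25.3% of all called genes were higher in IVF. The shares of all genes called in these fits are not given here, so the counts show only that the calls depended on the embryos and the scaling.

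The interaction of method with stage was called for 0 of the 44 genes at each of the 3 steps (0%, 0% and 2.86% of all genes), with 3, 4 and 5 at an unadjusted p below 0.05 by limma (2.8%, 5.35% and 14.5% of all genes). A call in 1 method and not in the other is therefore not shown to differ between them. The 8-cell embryos, 1 in each method, were not compared by a test of their own. Their values were 2511 FPKM in IVF and 421 in PA for EEF1A1, 542 and 253 for EEF1B2, 20.6 and 43.5 for EEF1D, 51.9 and 26.0 for EEF1G, 1145 and 667 for EIF3H, 434 and 259 for EIF3E, 73.2 and 305 for EIF1, and 34.1 and 80.2 for EIF4B.

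Genes that work beside the factors were taken as lists chosen from knowledge of the pathways with earlier results of these data known, and their counts are read against the percentages of all genes given above. Of 7 tested genes of termination and recycling, 2 rose in PA against the 1-cell stage, the release factor ETF1 by 5.92 (94.5, 79.4 and 137 FPKM in the 8-cell blastomeres) and DENR, which frees recycled subunits, by 3.39 (0.0315, 26.8 and 1.83 FPKM). Of 8 genes of mTORC1 and MAPK control, RHEB, the activator of mTORC1, fell by 3.92 in IVF against the 4-cell stage and by 3.27 in PA against the 1-cell stage. Of 4 genes of the integrated stress response, DDIT3 was called up in PA in both 8-cell comparisons, and only blastomere 1-4 held it (56.7 FPKM, the others 0). The interaction of method with the step from the 4- to the 8-cell stage was called for 1 of these 4 genes, with a smaller change in IVF than in PA.

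Of 19 tested genes of mRNA storage and cap-bound repression, 3 fell and 1 rose in IVF and 2 fell and 1 rose in PA against the 1-cell stage. PAIP1, listed among them, which joins the poly(A)-binding protein to the initiation complex, had log2 fold changes of -7.02 in IVF and -4.02 in PA against the 1-cell stage, both called, although PA 8-cell blastomere 1-2 held 32.3 FPKM. ZAR1L fell by 4.79 and 5.12, and CPEB1, which binds the cytoplasmic polyadenylation element, by 3.81 in IVF. YBX1, a packer of mRNA, rose by 4.23 in IVF and 3.63 in PA. Of 7 genes that modify the factors, METAP1, which removes the first methionine, was called up in all 4 8-cell comparisons, with 10.7, 51.1 and 0.519 FPKM in the IVF blastomeres and 67.2 FPKM in PA blastomere 1-4 against at most 0.0508 in the other two. Of 8 tested mitochondrial translation factors, MTIF2 rose in IVF against the 1-cell stage by 3.22, and TUFM, MTRF1L and MTRFR (named C12orf65 in the table) rose in PA in both 8-cell comparisons. MTRFR was held by PA blastomere 1-4 alone (24.8 FPKM), TUFM by 1-2 and 1-4 and MTRF1L by 1-1 and 1-2. For 1 of the 8 mitochondrial factors the interaction of method with the step from the 4- to the 8-cell stage was called, with a smaller change in IVF than in PA.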

How the data were processed

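The authors reverse transcribed and amplified each lysed cell with Ansuper-seq, mapped reads to Sscrofa11.1 with HISAT2 (also named in the submitters' processing notes), used StringTie for transcripts and HTSeq for counts, and deposited FPKM. The extraction protocol in the labels describes another procedure (oocytes in Trizol), and the study's methods were followed. Versions and strandedness are not given in the sources used here. All 42 columns were used. The members and lists were chosen with earlier results of these data known.

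Reads on genes were recovered from the FPKM of each gene as whole multiples of its smallest step. This gave whole reads, within 0.002, for 14666 of 14692 expressed genes (99.82%), and depth leaves out the others. Reads are amplified and carry no molecular identifiers.

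Cells were averaged, as FPKM, within their embryo. limma 3.58.1 in R 4.3.3 was fitted with a mean-variance trend to log2(FPKM + 1) of 20 embryos and 8 groups, which share 1 spread, so the lone 8-cell embryos are assumed to vary like the others. Nothing in the labels says that embryos came from separate experiments, so p-values measure the spread between embryos. Fold changes are on the log2(FPKM + 1) scale, which understates those of low genes. The design followed the authors' thresholds. They had tested counts between cells. The deposited FPKM were tested here, and no count test was run on the recovered reads. The script was tested on simulated data. The rule for named genes took 11 core factors, every gene called in a comparison and the 5 highest at each stage. EIF3D, EIF3I, EIF3J, EIF2S2, EIF2B2, EIF4H, EIF4E2, the kinases, EEF2K and the untested genes fall outside it and were named, after their values were seen, to account for each role.

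Starts came from RefSeq annotation release 106, with the curated transcript taken where there was 1 and otherwise the most upstream model. Shares, ranks and counts came from Python 3.11.15 (numpy 2.4.6, pandas 2.3.3) and were drawn with matplotlib 3.10.9. Alternatives were pseudocounts of 0.1 and 5, no filter, 2 other scalings, the mean of log2 values, only the groups compared, embryo numbers as a block, leaving out embryos or the near repeats, and, added after seeing the data, leaving out both cells of each repeat pair or each 8-cell blastomere.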

Additional observations from a re-analysis of the deposited data

Results flagged for a closer look

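The members' share of FPKM in IVF 2-cell blastomere 1-1 lay far above the other 5 cells of its group. It was 0.860% of all FPKM and 1.03% of nuclear FPKM, the highest of 6 cells on both scales, by Dixon's ratio at the 95% level. EEF1A1 (277 FPKM) was higher in this blastomere than in the other 5. Of 12 such checks, on 3 measures in the 4 groups of 6 or 9 cells, these 2 passed, and chance passes about 1 in 20. The 2 measures are of the same cell and not independent. Groups of 3 cells or embryos were not checked. No interaction of method with stage passed the threshold for any of the genes.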

How the results depend on the processing

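Of the 43 calls of single genes, 10 held under every alternative. They were those of EEF1B2, EEF1D and EIF4E3 against the 1-cell stage in both methods, of EEF1G and EIF3G in IVF and of EIF3H and EIF4B in PA. Of these, EEF1D passed the filter on low values only through the 8-cell blastomeres, so its calls are not read as support for a rise. The counts of 0 from the 1- to the 2-cell stage, between the methods at the 1- and 2-cell stage, and for the interactions over the first 2 steps stayed at 0 under all alternatives run. The part of read depth in the other calls was not tested, and each 8-cell group is a single embryo. The SE of a log2 fold change had a median of 0.77 where both groups held 3 embryos and 1.09 where an 8-cell embryo was compared.

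Scaling by the median ratio over 1064 genes gave 0 calls for IVF 4- against 2-cell (2 in the report), 14 for IVF 8- against 4-cell (8), 7 for PA 4- against 2-cell (0), 18 for PA 8- against 4-cell (11), 27 for IVF 8- against 1-cell (9), 26 for PA 8- against 1-cell (13), 1 for the methods at the 4-cell stage (0) and 5 for the last interaction (0). The mean of log2 values gave 4, 3 and 1 for IVF and PA 4- against 2-cell and the methods at the 4-cell stage. Fitting only the groups compared gave 0 for IVF 4- against 2-cell and for IVF and PA 8- against 4-cell, 12 and 14 for IVF and PA 8- against 1-cell, and 1 for the last interaction. A pseudocount of 0.1 gave 5 for IVF 8- against 4-cell, one of 5 gave 1 for the methods at the 4-cell stage and 2 for the last interaction, and no filter gave 5 for that interaction. Leaving out PA 4-cell blastomeres 1-4 and 2-1 gave 4 for PA 4- against 2-cell and 4 for the methods at the 4-cell stage, and leaving out both cells of each pair gave 1 and 5 for IVF 4- against 2-cell and 8- against 4-cell, 4 for PA 4- against 2-cell and 3 for the methods at the 4-cell stage. These counts are not set against the shares of all genes called in the same fits. Where no construction is named, the cause was not tested.

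Leaving out embryos or 8-cell blastomeres gave 0 to 8 calls for IVF 4- against 2-cell, 5 to 10 for IVF 8- against 4-cell, 0 to 1 for PA 4- against 2-cell, 8 to 12 for PA 8- against 4-cell, 7 to 13 for IVF and 8 to 13 for PA 8- against 1-cell, 0 to 5 for the methods at the 4-cell stage and 0 to 1 for the last interaction. Without an embryo or blastomere, values against the 4-cell stage ran from -0.085 to 3.60 for EIF2A in IVF and, in PA, from -1.15 to 5.79 for EIF1AD, -0.40 to 4.67 for EIF3L and -0.85 to 4.55 for EIF4A3, and against the 1-cell stage from -0.78 to 4.28 for EIF3L. The sign also turned for EIF5B in PA under the median ratio (0.22).

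Embryo numbers did not pair the groups. Of 45 correlations between same-numbered embryos 4 were over 0.1 (median, 0.0083), and with the replicate block IVF 4- against 2-cell had 1 call, while the other counts stayed within 1.5 times. Shares of nuclear FPKM against all FPKM were 0.893%, 0.852%, 1.15% and 4.04% in IVF and 0.884%, 0.852%, 0.907% and 2.15% in PA. At an FPKM of at least 1 in place of above 0, 26.7 genes were found in IVF 2-cell, 24 in PA 2-cell and 22.7 in PA 4-cell embryos.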
